A study of Mus musculus with 2 samples.

Results

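YAP and TAZ with their target genes are described here as 8 genes taken by symbol from the 27998 features of the deposited count tables: Yap1 and Wwtr1, which encode the co-activators YAP and TAZ, and Cyr61, Ctgf, F3, Thbs1, Ankrd1 and Amotl2, which are widely used as readouts of these co-activators. All 8 symbols were found. The study profiled single cells from the lungs of male mice, sorted by flow cytometry as EpCAM+ cells without CD31, CD34, CD45, CD24 and Sca-1, a sort for alveolar type 2 (AT2) cells. There is 1 library labelled WT and 1 labelled IP-/-(IPKO), that is, without the receptor for prostaglandin I2, which Ptgir encodes. The strain, the age, the number of mice behind each library and the way the receptor was deleted were not stated by the submitters' labels, and no treatment is named. Libraries were made with the 10x Chromium Single Cell 3′ kit, which tags molecules near the 3′ end of a transcript and counts each once by its unique molecular identifier (UMI).

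In the Hippo pathway, the MST kinases (Stk3, Stk4) and their adaptor Sav1 activate the LATS kinases, which phosphorylate YAP and TAZ and keep them out of the nucleus. Unphosphorylated YAP and TAZ enter the nucleus and bind TEAD factors at promoters and enhancers of genes for matrix, cytoskeleton and growth. The pathway acts mainly on the protein, so that the RNA of Yap1 and Wwtr1 can stay level while the targets change. In the lung, YAP and TAZ are known for their part in the flattening of AT2 cells into alveolar type 1 (AT1) cells and in repair after injury, in which keratin-rich transitional cells appear. Most of the targets also respond to other inputs, among them AP-1 and the actin-regulated SRF pathway.

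Promoter sequence is shown first for Cyr61 and F3, because these genes differed between the libraries in opposite directions. The windows hold 250 bases before the RefSeq start of transcription on GRCm38.p6, read 5′ to 3′ on the gene's strand, with motif matches in capitals. Cyr61 lies on the minus strand and its window is chr3:145649986-145650235. F3 lies on the plus strand and its window is chr3:121723287-121723536, part of which an annotated exon of Gm43823 also covers.
Cyr61: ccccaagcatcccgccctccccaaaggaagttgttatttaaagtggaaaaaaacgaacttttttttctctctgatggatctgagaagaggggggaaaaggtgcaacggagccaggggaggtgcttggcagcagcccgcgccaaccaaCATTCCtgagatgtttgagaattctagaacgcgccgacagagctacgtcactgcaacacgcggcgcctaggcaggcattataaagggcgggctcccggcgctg
F3: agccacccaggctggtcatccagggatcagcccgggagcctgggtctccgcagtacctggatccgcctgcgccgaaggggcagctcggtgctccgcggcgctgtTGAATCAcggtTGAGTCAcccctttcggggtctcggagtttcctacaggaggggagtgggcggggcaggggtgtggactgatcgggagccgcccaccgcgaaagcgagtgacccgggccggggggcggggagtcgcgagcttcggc

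The capitals in Cyr61 are the TEAD motif GGAATG, read on the opposite strand as CATTCC, at 103 to 98 bases before the start. The capitals in F3 are 2 matches to the AP-1 motif TGANTCA, which Fos and Jun proteins bind, and its window holds no GGAATG. The 30 bases around the TEAD motif of the other genes with a level that could be measured in AT2 cells were as follows, for Yap1 at chr9:8004720-8004749 and Wwtr1 at chr3:57576029-57576058 on the minus strand, and for Amotl2 at chr9:102717727-102717756 on the plus strand.
Yap1: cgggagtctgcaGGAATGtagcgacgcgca
Wwtr1: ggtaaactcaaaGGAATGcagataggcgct
Amotl2: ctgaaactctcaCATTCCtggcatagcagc

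The table of RefSeq promoters held 6 of the 8 genes, with 2 starts for Wwtr1, and Ctgf and Thbs1 were not among them. GGAATG, searched on both strands, was found in 5 of the 6 (Yap1, Wwtr1, Cyr61, Ankrd1 with 2 matches, and Amotl2), against 12.6% of all 32851 promoter windows of the same length. TGANTCA was found in F3 alone, against 6.75% of all windows. The cyclic AMP response element TGACGTCA (1.55% of windows) and the CArG box bound by SRF (1.47%) were found in none of the 6. The motifs did not overlap one another. In GENCODE vM21 the motif of Amotl2 lies inside an exon of 2 Amotl2 transcripts that start farther upstream, and both motifs of Ankrd1 lie inside an exon of 1 Ankrd1 transcript, so for these genes the window before the RefSeq start is also annotated as transcribed. The far end of the Yap1 window overlaps an exon of Gm45494. A match describes these letters and is not a measured binding site.

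**Figure D1:**
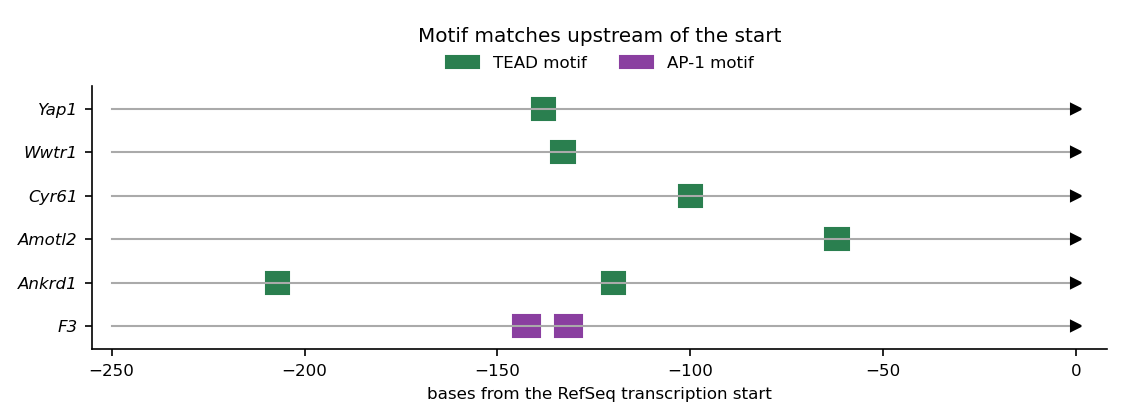
Positions of motif matches in the 250 bases before the start of transcription of 6 genes (horizontal axis, bases from the RefSeq start, arrowhead at the start), with TEAD motifs in green and AP-1 motifs in purple. F3 is the gene without a TEAD motif in this window and holds 2 AP-1 motifs.

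After removal of barcodes with under 500 genes or over 20% mitochondrial UMIs, 6745 of 8924 barcodes labelled WT and 8072 of 10014 labelled IPKO were kept, with medians of 18057 and 16665 UMIs. The libraries shared 79 barcodes, 16 of them among kept cells. AT2 cells were those with at least 10% of UMIs from Sftpc (surfactant protein C), 6422 labelled WT and 7465 labelled IPKO. All 10 AT2 markers, Sftpc among them, were detected in every class, so detection does not set AT2 cells apart. Their median level did differ, at 5238 and 4513 UMIs per 1000000 in AT2 cells against 151 and 164 in endothelial cells. Keratin-high cells were the highest 5% of cells by the share of UMIs in Krt7, Krt8, Krt18 and Krt19, with 325 and 392 cells, of which 301 and 353 also met the Sftpc rule. Their transitional markers, the keratins included, summed to 3966 and 3859 UMIs per 1000000 UMIs of the class (CPM), against 485 and 546 in other AT2 cells. Endothelial cells carried at least 5 of 10 endothelial markers and under 10% Sftpc, with 61 and 56 cells despite a sort against CD31. Ptgir itself went against the labels, with 0 UMIs in AT2 cells of the library labelled WT and 314 in those of the library labelled IPKO. This kit may count transcripts that keep their 3′ end after a deletion, so the count does not settle which library is which, and directions below refer to the libraries as labelled.

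With 1 library per label no test between libraries was possible. Levels are the CPM of a gene over all cells of a class. Ratios between libraries are log2 of labelled IPKO over labelled WT, and all intervals are exact 95% intervals for counting error only, which leave out differences between mice, sorts and libraries. A gene was called past 1.5-fold where its mean over the libraries reached 5 CPM. The counts came from 121793321 UMIs in AT2 cells labelled WT and 131064361 labelled IPKO.

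The RNA of YAP and TAZ was at closely similar levels in AT2 cells of both libraries. Yap1 stood at 34.2 CPM (33.1 to 35.2) labelled WT and 35.1 (34.1 to 36.2) labelled IPKO, a log2 ratio of 0.04 (-0.02 to 0.10). Wwtr1 stood at 37.0 (35.9 to 38.1) and 35.6 (34.6 to 36.7), a log2 ratio of -0.05 (-0.11 to 0.01). Both intervals include 0 and lie far inside 1.5-fold. Yap1 was detected in 45.7% of AT2 cells labelled WT and 44.0% labelled IPKO, and in 9.65% and 9.19% once each cell was thinned to 3000 UMIs. Wwtr1 was detected in 47.4% and 43.0%, and in 10.7% and 9.91% after thinning. The 1% of cells with most UMIs of the gene held 6.22% and 6.52% of all Yap1 UMIs and 6.38% and 7.13% of all Wwtr1 UMIs.

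Among the targets, Cyr61 was higher and F3 lower in AT2 cells labelled IPKO, by nearly the same factor. Cyr61, also called Ccn1, encodes a secreted matricellular protein of the CCN family, and lies on chromosome 3 at 145646976 to 145649981. It stood at 5.34 CPM (4.93 to 5.76, from 650 UMIs) labelled WT and 17.8 (17.1 to 18.5, from 2330 UMIs) labelled IPKO, a log2 ratio of 1.74 (1.61 to 1.86). This is 3.33-fold, the 10th highest of 8500 genes. F3 encodes tissue factor, the cell-surface protein that starts the extrinsic pathway of coagulation, and lies on the same chromosome at 121723537 to 121735048. It stood at 12.7 CPM (12.1 to 13.4, from 1552 UMIs) labelled WT and 3.90 (3.57 to 4.25, from 511 UMIs) labelled IPKO, a log2 ratio of -1.71 (-1.86 to -1.56). This is 3.27-fold lower, the 12th lowest of the 8500.

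Detection moved with the level in both genes. Cyr61 was found in 5.47% of AT2 cells labelled WT and 12.1% labelled IPKO, or 1.31% (1.05 to 1.62) and 3.92% (3.49 to 4.39) after thinning to 3000 UMIs. F3 was found in 17.6% and 5.75%, or 3.67% (3.22 to 4.16) and 1.10% (0.877 to 1.37) after thinning. The positive cells also differed in depth of signal: cells with Cyr61 held a mean of 1.85 UMIs of it labelled WT and 2.58 labelled IPKO, and cells with F3 held 1.38 and 1.19. The UMIs of Cyr61 were concentrated, with 57 cells labelled WT and 292 labelled IPKO holding 3 or more, and these cells carried 44.9% and 67.5% of all Cyr61 UMIs.

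A smaller difference was found in Amotl2, and Thbs1 summed over all AT2 cells had closely similar levels. Amotl2, which encodes a junction protein of the angiomotin family that binds YAP and restrains it, stood at 61.1 CPM (59.7 to 62.5) and 73.9 (72.4 to 75.4), a log2 ratio of 0.27 (0.23 to 0.32) that excludes 0 and stays inside 1.5-fold. Ctgf, also called Ccn2 and of the same CCN family as Cyr61, was scarce, at 1.14 (0.959 to 1.35, from 139 UMIs) and 1.87 (1.64 to 2.12, from 245 UMIs), a log2 ratio of 0.71 (0.41 to 1.02). This ratio rested on few cells, since 21 cells with 3 or more UMIs held 42.0% of all Ctgf UMIs labelled IPKO, and after thinning to 10000 UMIs Ctgf was in 1.21% (0.951 to 1.51) of AT2 cells labelled WT and 1.15% (0.917 to 1.43) labelled IPKO. In keratin-high cells its log2 ratio was 0.12 (-0.71 to 0.96). Thbs1, which encodes the matricellular protein thrombospondin 1, stood at 14.5 (13.8 to 15.2) and 13.9 (13.2 to 14.5), a log2 ratio of -0.06 (-0.16 to 0.03). Ankrd1, a nuclear ankyrin-repeat protein best known from heart and muscle, had 3 UMIs in all AT2 cells labelled WT and 10 in those labelled IPKO, too few for a ratio to be read.

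Of the 6 genes above 5 CPM, then, 1 was past 1.5-fold higher in the library labelled IPKO, against 1.69% of all 8500 genes measured, and 1 was past it lower, against 1.51%. Ctgf and Ankrd1 were under that level and are not in this count. F3, at 12.7 CPM labelled WT and 3.90 labelled IPKO, reached the mean of 5 CPM through the library labelled WT. The median log2 ratio over all 8500 genes was 0.06. Both Cyr61 and F3 kept their direction in keratin-high cells, in which Cyr61 stood at 17.5 labelled WT and 39.9 labelled IPKO (log2 1.19, 0.85 to 1.53) and F3 at 79.7 and 23.4 (log2 -1.77, -2.04 to -1.50). Yap1, Wwtr1 and Thbs1 lay between them, inside 1.5-fold in both classes.

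**Figure D2:**
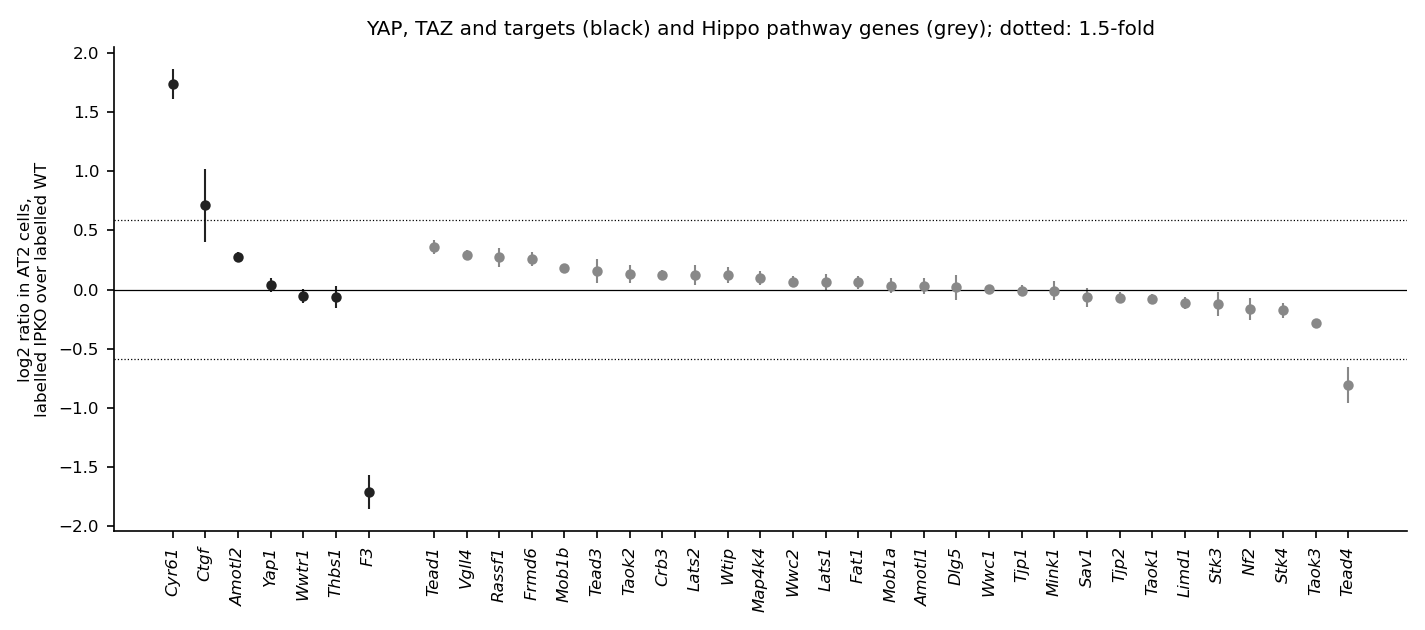
Log2 ratio in AT2 cells, labelled IPKO over labelled WT (vertical axis), for 7 of the 8 genes (black; Ankrd1 is left out for its few UMIs) and 29 genes of the Hippo pathway (grey), with 95% counting intervals and dotted lines at 1.5-fold. Cyr61 at 1.74 and F3 at -1.71 lie at opposite ends, and Tead4 at -0.81 is the one grey point past a dotted line.

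Among 29 measured genes of the Hippo pathway in AT2 cells, 0 were past 1.5-fold higher in the library labelled IPKO, against 1.69% of all genes, and 1 was lower, against 1.51%. The median log2 ratio was 0.04, against 0.06 over all genes, so the list stood near the background. None of the 7 core kinase and adaptor genes (Stk3, Stk4, Sav1, Lats1, Lats2, Mob1a and Mob1b) was past 1.5-fold, and neither was any of the 5 upstream kinases or 11 scaffold genes measured. The exception was Tead4, 1 of the DNA-binding partners of YAP and TAZ, at 7.43 CPM labelled WT and 4.25 labelled IPKO (log2 -0.81, -0.96 to -0.65). Tead4 reached the mean of 5 CPM through the library labelled WT. Its relative Tead1, at 34.5 and 44.3, was the highest ratio of the list (log2 0.36, 0.30 to 0.42), followed by Vgll4, a TEAD-binding competitor of YAP, at 73.9 and 90.8 (log2 0.30, 0.26 to 0.34). The upstream kinase Taok3 stood next to Tead4 at the lower end, with 242 and 200.1 CPM (log2 -0.28, -0.30 to -0.25).

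A list of other published YAP and TAZ targets gave 0 genes past 1.5-fold in either direction among 8 measured, with a median log2 ratio of -0.21, against the same background of 1.69% and 1.51%. The lowest were Crim1, at 6.81 and 4.64 CPM (log2 -0.55, -0.71 to -0.40), and Myof, which encodes the membrane repair protein myoferlin, at 72.2 and 55.9 (log2 -0.37, -0.42 to -0.33). The highest were Arhgef17, with a log2 ratio of 0.14, and the target and kinase Lats2, with 0.12. None of these came near the size of the difference in Cyr61 or F3.

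Most of the early-response and heat shock genes measured were higher in the library labelled IPKO. Of 16 early-response genes (AP-1 subunits, Egr1, Atf3 and others that are induced within minutes of a stimulus and also by tissue dissociation), 12 were past 1.5-fold higher, against 1.69% of all genes, and 0 lower, with a median log2 ratio of 0.73. Jun stood at 770 CPM labelled WT and 1443 labelled IPKO, and Klf2 was the highest of the list at 8.63 and 37.6 (log2 2.12, 2.03 to 2.22). The lowest of the list were Ier3 (log2 -0.05) and Klf4 (log2 0.27). Of 8 heat shock genes, 5 were past 1.5-fold higher and 0 lower, led by Hspa1a at 79.6 and 558 CPM (log2 2.81). Of 8 measured SRF targets, 0 were past 1.5-fold in either direction, with a median of -0.03, and of 6 measured AT1 genes 2 were higher and 0 lower, namely Akap5 (log2 1.06) and Hopx (log2 0.77). Akap5, at 4.29 CPM labelled WT and 8.95 labelled IPKO, reached the mean of 5 CPM through the library labelled IPKO. How far handling took part in these differences was not tested.

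AT2 cells were therefore also read by their early-response load, in 4 bands by the share of UMIs in those 16 genes, with limits shared by both libraries. The bands held unequal parts of the libraries: the highest held 10.8% of AT2 cells labelled WT and 37.2% of those labelled IPKO. Cyr61 rose steadily with this load, from 2.69 CPM in the lowest band to 11.4 in the highest labelled WT (4.23-fold) and from 4.44 to 28.1 labelled IPKO (6.33-fold). Within each band it was still higher in the library labelled IPKO, with log2 ratios of 0.72 (0.31 to 1.13), 1.29 (1.01 to 1.56), 0.87 (0.65 to 1.11) and 1.30 (1.05 to 1.57) from the lowest load to the highest. These lie below the 1.74 of all AT2 cells. F3 depended less on the load, at 10.6 and 16.6 in the lowest and highest bands labelled WT and 2.22 and 4.27 labelled IPKO. It was lower in the library labelled IPKO in all 4 bands, with log2 ratios of -2.26 (-2.75 to -1.81), -1.71 (-2.03 to -1.41), -1.75 (-2.02 to -1.47) and -1.96 (-2.25 to -1.67).

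Thbs1 and Amotl2 read differently within bands of this load. The bands are wide, and the load may still differ between the libraries inside a band. Thbs1, level over all AT2 cells, went from 7.68 to 32.3 CPM labelled WT and from 4.23 to 18.8 labelled IPKO between the lowest and highest bands. Within bands of this load its log2 ratios were -0.86 (-1.23 to -0.51), -0.11 (-0.31 to 0.09), -0.56 (-0.75 to -0.38) and -0.78 (-0.96 to -0.61). Thbs1 was thus lower in the library labelled IPKO beyond counting error in all bands but the second. Amotl2 went from 52.2 to 82.8 labelled WT and from 63.1 to 84.4 labelled IPKO, and its log2 ratio fell from 0.27 (0.17 to 0.37) in the lowest band to 0.03 (-0.07 to 0.13) in the highest. Yap1 changed by 1.18-fold and 1.16-fold between the end bands, and Wwtr1 by 1.29-fold and 1.05-fold.

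**Figure D3:**
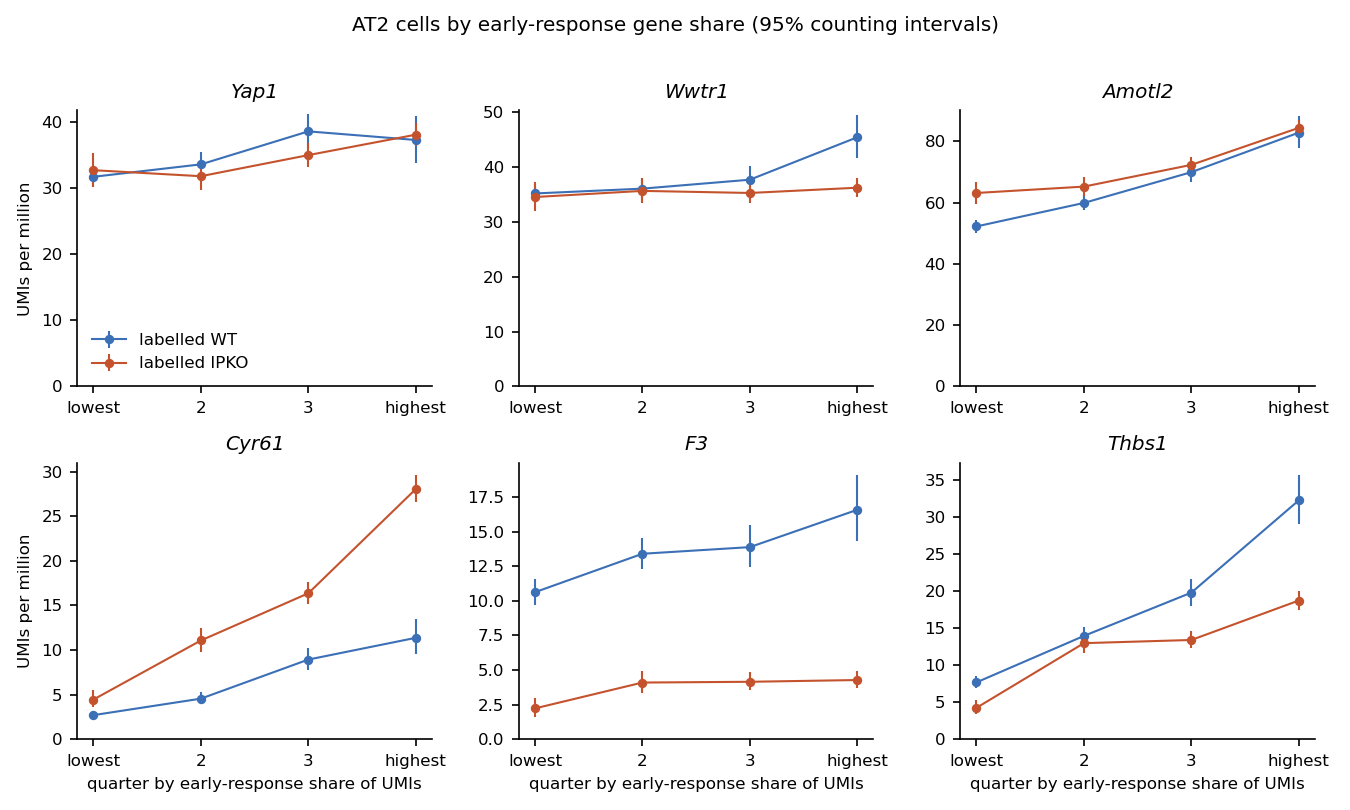
CPM (vertical axes, starting at 0) of 6 genes in AT2 cells divided into 4 bands by their share of early-response UMIs (horizontal axis), labelled WT in blue and labelled IPKO in orange, with 95% counting intervals. Cyr61 and Thbs1 climb with the load in both libraries, F3 stays lower in the library labelled IPKO at every band, and Yap1 is nearly flat.

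The same division by AT1 genes and by SRF targets gave higher levels of Ctgf, Cyr61, F3 and Thbs1 in the highest than in the lowest band of both loads. Over the AT1 load, the highest band exceeded the lowest by 7.80-fold labelled WT (60 against 10 UMIs) and 3.62-fold labelled IPKO (117 against 30 UMIs) for Ctgf, by 2.41-fold and 2.63-fold for Cyr61, by 1.82-fold and 1.62-fold for F3, and by 1.74-fold and 2.32-fold for Thbs1. Over the SRF load it did so by 2.92-fold and 4.06-fold for Ctgf, 2.87-fold and 2.61-fold for Cyr61, 2.82-fold and 3.20-fold for F3, and 3.76-fold and 4.08-fold for Thbs1. Wwtr1 and Amotl2 rose too, inside 1.5-fold, with intervals that exclude 0 in both libraries. Wwtr1 rose by 1.46-fold and 1.34-fold over the AT1 load and 1.26-fold and 1.31-fold over the SRF load. Amotl2 rose by 1.32-fold and 1.21-fold, and by 1.22-fold and 1.23-fold. Yap1 stood at 1.11-fold and 0.96-fold over the AT1 load and 0.98-fold and 1.07-fold over the SRF load. The opposite directions of Cyr61 and F3 held within each of the 4 bands of both loads, with log2 ratios between 1.27 and 1.93 for Cyr61 and between -2.07 and -1.50 for F3. Thbs1 went both ways within these bands. Its log2 ratios lay between -0.38 (-0.57 to -0.18) and 0.23 (0.06 to 0.39) over the AT1 load. Over the SRF load they lay between -0.19 (-0.47 to 0.10) and 0.45 (0.21 to 0.69).

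In keratin-high cells, the targets F3, Thbs1, Cyr61 and Ctgf were higher than in other AT2 cells of the same library, while Yap1, Wwtr1 and Amotl2 stayed inside 1.5-fold. F3 went from 10.4 CPM (9.78 to 11.0) in other AT2 cells to 79.7 (72.7 to 87.3) in keratin-high cells labelled WT, a log2 ratio of 2.94 (2.79 to 3.1). Labelled IPKO it went from 3.16 (2.86 to 3.49) to 23.4 (19.8 to 27.4), a log2 ratio of 2.89 (2.61 to 3.16). The step was thus of like size in both libraries, although the levels lay 3.28-fold apart in other AT2 cells and 3.41-fold apart in keratin-high cells. Part of it came from keratin-high cells under the Sftpc rule, and 1 keratin-high cell held 53 of the 469 F3 UMIs labelled WT. In keratin-high cells that met the Sftpc rule, the log2 ratios of F3 were 2.64 labelled WT and 2.60 labelled IPKO.

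Thbs1 showed a step of like size, and its log2 ratio between the libraries in keratin-high cells was 0.08 (-0.09 to 0.25). It went from 11.0 (10.4 to 11.6) to 87.0 (79.6 to 94.9) labelled WT and from 10.4 (9.79 to 10.9) to 91.8 (84.6 to 99.5) labelled IPKO, log2 ratios of 2.98 (2.83 to 3.13) and 3.15 (3.01 to 3.29). Cyr61 went from 4.80 to 17.5 and from 16.7 to 39.9, log2 ratios of 1.87 (1.55 to 2.17) and 1.26 (1.07 to 1.45). Ctgf, with 24 and 29 UMIs in keratin-high cells, had log2 ratios of 1.93 (1.23 to 2.56) and 1.33 (0.71 to 1.89).

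The co-activators and Amotl2 stayed close to their level in other AT2 cells. Yap1 stood at 28.9 and 33.6 CPM in keratin-high cells, log2 ratios of -0.25 (-0.48 to -0.03) and -0.07 (-0.27 to 0.13). Wwtr1 stood at 42.5 and 39.4, with 0.21 (0.02 to 0.40) and 0.15 (-0.03 to 0.33). Amotl2 stood at 53.7 and 62.8, with -0.19 (-0.36 to -0.03) and -0.24 (-0.39 to -0.10). Of the 6 genes measured, 3 (Cyr61, F3 and Thbs1) were past 1.5-fold higher in both libraries, against 6.32% of 8676 genes, and 0 were past it lower, against 1.87%. The median over all measured genes was 0.12 in each library. Keratin-high cells held a median of 16793 and 16540.5 UMIs, against 18365 and 17075.5 in other AT2 cells. Their mesenchymal markers summed to 0.51 and 3.51 CPM. Their endothelial markers summed to 77.7 and 77.9 CPM, most of it Esam, at 66.95 and 66.2.

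Detection in keratin-high cells followed the levels. After thinning to 3000 UMIs, F3 was found in 19.4% (15.2 to 24.1) of them labelled WT and 6.89% (4.59 to 9.86) labelled IPKO, against 3.05% and 1.02% of other AT2 cells. Thbs1 was found in 16.0% (12.2 to 20.5) and 16.3% (12.8 to 20.4), against 2.72% and 2.19%. Without thinning, F3 was in 49.5% and 24.2% of keratin-high cells and Thbs1 in 44.6% and 42.3%.

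Divided over 6 bands of keratin share within AT2 cells, F3 and Thbs1 rose at each step in both libraries. F3 went from 8.11 CPM below the median of keratin share to 109 in the top 2% labelled WT, and from 2.13 to 31.6 labelled IPKO. Thbs1 went from 6.05 to 141 and from 6.87 to 101. The intermediate bands already showed the climb: between the 75th and 90th percentiles F3 stood at 14.9 and 4.81 and Thbs1 at 20.3 and 16.0. Yap1 went from 34.5 to 27.2 and from 34.9 to 35.1 between the end bands, and Amotl2 from 62.0 to 54.0 and from 75.4 to 59.8.

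**Figure D4:**
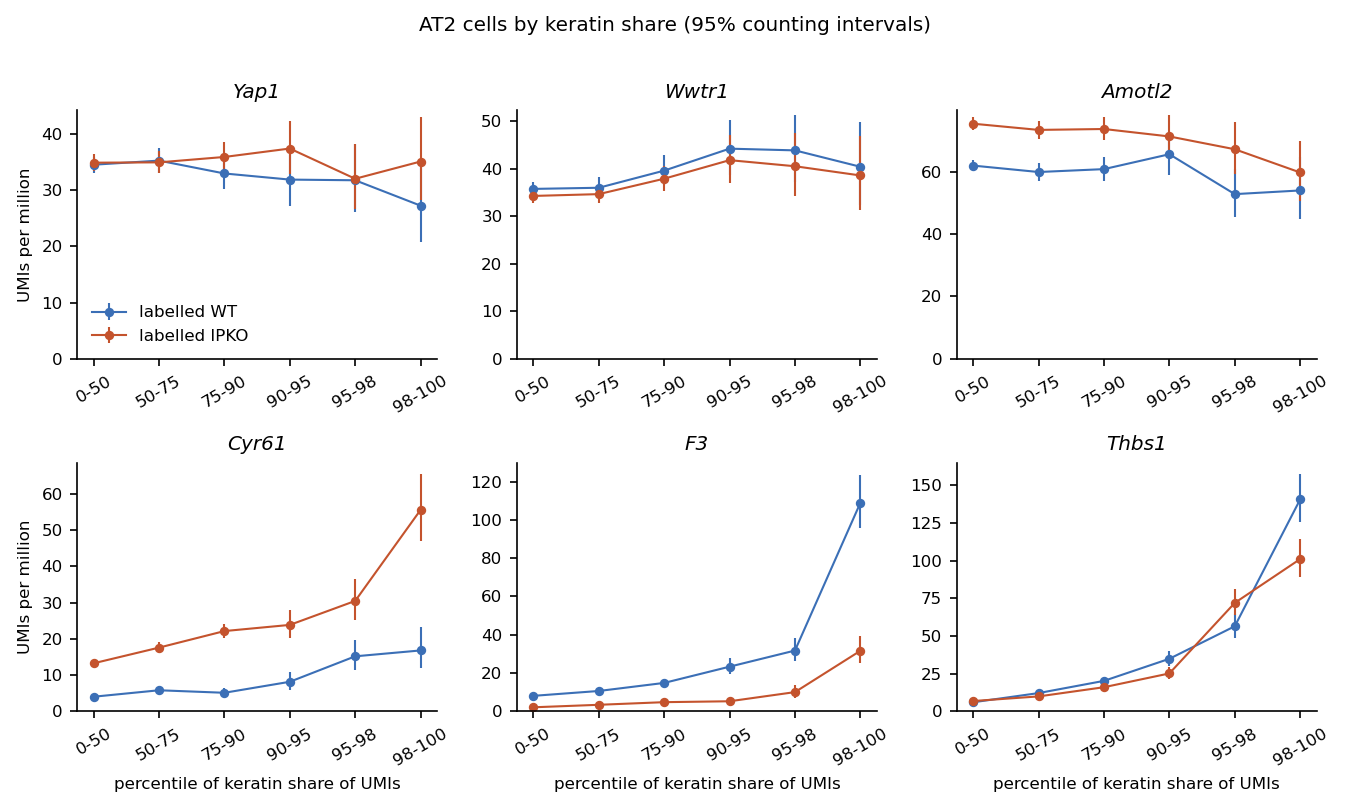
CPM (vertical axes, starting at 0) of 6 genes in AT2 cells divided into 6 bands by percentile of keratin share (horizontal axis, unequal widths), labelled WT in blue and labelled IPKO in orange, with 95% counting intervals. F3 and Thbs1 climb over all bands, F3 to 109 and 31.6 CPM in the top 2%, while Yap1, Wwtr1 and Amotl2 show no such climb.

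Of 31 Hippo genes measured in keratin-high cells, 2 were past 1.5-fold higher in both libraries, against 6.32% of all genes, and 0 lower, against 1.87%, with median log2 ratios of 0.08 labelled WT and 0.09 labelled IPKO. The 2 were Ptpn14, a phosphatase that binds YAP and is itself a target, at 21.4 and 11.9 CPM in keratin-high cells (log2 2.60 and 1.63), and Ajuba, a LIM protein that restrains LATS, at 11.1 and 9.93 (log2 2.17 and 0.98). In other AT2 cells Ptpn14 stood at 3.54 and 3.85 and Ajuba at 2.45 and 5.03, so both reached the mean of 5 CPM through the keratin-high cells, and a count of 2 near the background is not a result about the pathway. Of 9 other targets measured, 2 were higher (Ptpn14 and Myof, log2 0.61 and 0.78) and 1 lower (Rbms3, log2 -1.28 and -0.97). Against the same background, 6 of 8 SRF targets were higher, led by the actin crosslinker Flna at 92.3 and 58.7 (log2 1.61 and 1.23). Of 7 AT1 genes 6 were higher, with the largest ratios in Cav1 (log2 2.72 and 2.92). Cav1 stood at 1.0 and 1.86 CPM in other AT2 cells and 6.63 and 14.1 in keratin-high cells. It too reached the mean of 5 CPM through the keratin-high cells. Of 16 early-response genes, 2 were higher, Ier3 (log2 0.97 and 0.90) and Atf3 (log2 1.02 and 0.60). Of 8 heat shock genes, 3 were higher, among them Hspb1 (log2 1.46 and 0.96).

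The genes that varied most like each member across AT2 cells, thinned to 10000 UMIs, differed between the targets. Those most like F3 were Anxa1 (annexin A1; Pearson r 0.21 over 6210 cells labelled WT and 0.15 over 7021 labelled IPKO), S100a6 (0.19 and 0.16) and Lgals3 (galectin 3; 0.19 and 0.14). Those most like Thbs1 were Areg (amphiregulin; 0.22 and 0.23), S100a6 (0.23 and 0.20) and Lgals3 (0.21 and 0.20). Areg, S100a6 and Lgals3 were also on the list of transitional markers. For Amotl2 it was the lipid flippase gene Atp8a1 (0.11 and 0.10), and for Yap1, Wwtr1, Cyr61, Ctgf and Ankrd1 no gene reached 0.1 in both libraries. Cells of a library share its depth and preparation, and these values are a description of sparse counts.

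Co-detection within single AT2 cells at the same depth gave a like picture. Among cells with F3, 15.3% (12.7 to 18.3) also had Thbs1 labelled WT and 15% (10.7 to 20.2) labelled IPKO, against 7.41% (6.74 to 8.13) and 7.03% (6.44 to 7.67) of cells without F3. Cells with Cyr61 had Thbs1 in 12.7% (8.56 to 18.0) and 9.54% (7.36 to 12.1), against 8.09% and 7.09% of cells without it. Cells with Cyr61 had F3 in 11.3% (7.39 to 16.4) and 3.98% (2.59 to 5.81), against 10.5% and 3.36%. Cells with F3 thus had Thbs1 more often than cells without it, beyond counting error in both libraries, whereas the intervals for Cyr61 and F3 overlap. Wwtr1 gave no such excess with Yap1 either: cells with Wwtr1 had Yap1 in 29.2% and 28.2%, against 28.7% and 29.3%.

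Endothelial cells had a different set of these genes, with much Cyr61, Ctgf and Wwtr1 and no detected F3. The vessel wall is a known site of YAP and TAZ activity under flow. Cyr61 stood at 276 CPM (213 to 352, from 64 UMIs) labelled WT and 215 (160 to 284, from 50 UMIs) labelled IPKO, log2 ratios over AT2 cells of 5.69 (5.30 to 6.06) and 3.60 (3.17 to 4.0). Ctgf stood at 94.8 in both, from 22 UMIs each, of which 1 cell held 7 labelled WT and 1 cell held 16 labelled IPKO, with log2 ratios over AT2 cells of 6.38 (5.66 to 7.03) and 5.66 (4.96 to 6.30). Wwtr1 stood at 116 in both, from 27 UMIs each, with 1.66 (1.05 to 2.20) and 1.71 (1.10 to 2.25). The step of Cyr61 over AT2 cells was the smaller one in the library labelled IPKO, in which the AT2 level was higher and the endothelial level was within counting error of the other library (log2 -0.36, -0.92 to 0.20).

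Yap1 did not share the step of Wwtr1, with 7 and 5 UMIs, or 30.2 (12.1 to 62.2) and 21.5 (6.99 to 50.3) CPM. Amotl2 stood at 168 (120 to 230) and 90.5 (56.0 to 138), past 1.5-fold over AT2 cells labelled WT (log2 1.46, 0.97 to 1.91) and not labelled IPKO (log2 0.29, -0.40 to 0.90). Its log2 ratio between the libraries in endothelial cells was -0.89 (-1.73 to -0.09), against 0.27 in AT2 cells. Thbs1 had 1 UMI labelled WT and 14 labelled IPKO, from 7 cells, a log2 ratio of 3.81 with a counting interval of 1.09 to 9.21. F3 and Ankrd1 had 0 UMIs in both libraries, for which a count of 0 allows up to 12.9 CPM, a limit above the AT2 level of F3.

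Of the 6 genes above 5 CPM in this comparison, 3 (Wwtr1, Cyr61 and Ctgf) were past 1.5-fold higher than in AT2 cells in both libraries and 0 were lower. Here 47.7% of 9756 genes were past 1.5-fold higher and 9.9% lower, with medians of 0.88 and 0.81. A count of 3 among 6 is close to this background and is not a result about these genes, and Ctgf reached 5 CPM only through the endothelial cells. After thinning to 3000 UMIs, which 34 and 32 endothelial cells reached, Cyr61 was in 41.2% (24.7 to 59.3) and 28.1% (13.8 to 46.8) of them. Wwtr1 was in 38.2% (22.2 to 56.4) and 18.8% (7.21 to 36.4), intervals that overlap widely.

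Other cells of the sort give a scale for RNA from other sources. In mesenchymal cells (17 and 20 cells) Cyr61 stood at 562 and 869 CPM, Ctgf at 500.5 and 486 and Thbs1 at 537 and 274. These levels rest on few cells, since 1 cell held 41 of the 44 Thbs1 UMIs labelled WT and 19 of the 35 labelled IPKO, and 1 cell held 31 of the 62 Ctgf UMIs labelled IPKO. In AT2 cells the 10 mesenchymal markers summed to 3.64 and 4.96 CPM, with Col1a1 at 0.0575 and 0.595, Col1a2 at 0.0821 and 0.832 and Col3a1 at 0.156 and 0.687, against sums of 30751 and 53511 in mesenchymal cells. The 10 endothelial markers summed to 79.8 and 91.7 in AT2 cells, against sums of 16109 and 15238 in endothelial cells. Most of the AT2 sum was Esam, at 67.1 and 74.85, followed by Egfl7, at 9.89 and 11.5. In keratin-high cells Esam stood at 66.95 and 66.2 and Egfl7 at 10.0 and 10.2. The sum is thus mainly a reading of Esam, whose source in AT2 cells was not tested. Pecam1 stood at 0.665 and 1.02 in AT2 cells and Cdh5 at 0.361 and 0.717. Both sums and the markers named so far were thus also higher in AT2 cells labelled IPKO. Not all mesenchymal markers were: Mgp, the highest of them there, stood at 2.13 and 2.09. Inmt, at 0.78 and 0.183, Pdgfra, at 0.181 and 0.0534, Tcf21, at 0.0739 and 0.0229, and Cspg4, at 0.049 and 0.038, were lower labelled IPKO. Dcn, at 0.131 and 0.427, was higher, as was Pdgfrb, at 0 and 0.0305. Without the 826 and 990 AT2 cells that carried 2 or more endothelial or mesenchymal markers, Cyr61 (log2 1.77) and F3 (log2 -1.67) were again the genes past 1.5-fold. Which of the markers these cells carried was not examined, and a cell with Esam and Egfl7 alone counts among them.

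Lymphocytes, which should lack these genes, give the level of free RNA. In the 93 lymphocytes labelled IPKO (585375 UMIs, median 5662 per cell) there were 1 UMI each of Yap1 and Cyr61, 2 of Amotl2 and 0 of Wwtr1, Ctgf, F3, Thbs1 and Ankrd1. A count of 0 there allows up to 5.12 CPM. Sftpc was in these lymphocytes at 2.00% of its AT2 level. Cyr61 stood at 1.71 CPM (0.0432 to 9.52) in them, under its 17.8 in AT2 cells, whereas the limit for F3 and Ctgf lies above the 3.90 and 1.87 of AT2 cells labelled IPKO, so the lymphocytes are too few to place these apart from free RNA. After thinning, 0 of 90 lymphocytes labelled IPKO had any of the 8 genes, which allows a share of cells with a UMI at that depth of up to 3.33%. The 16 lymphocytes labelled WT held 1 UMI of Amotl2 and 0 of the other 7 genes, where a count of 0 allows up to 29.0 CPM. That limit lies above the AT2 levels labelled WT of Cyr61, Ctgf, F3 and Thbs1, so the 16 lymphocytes are too few to place these levels apart from free RNA.

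**Figure D5:**
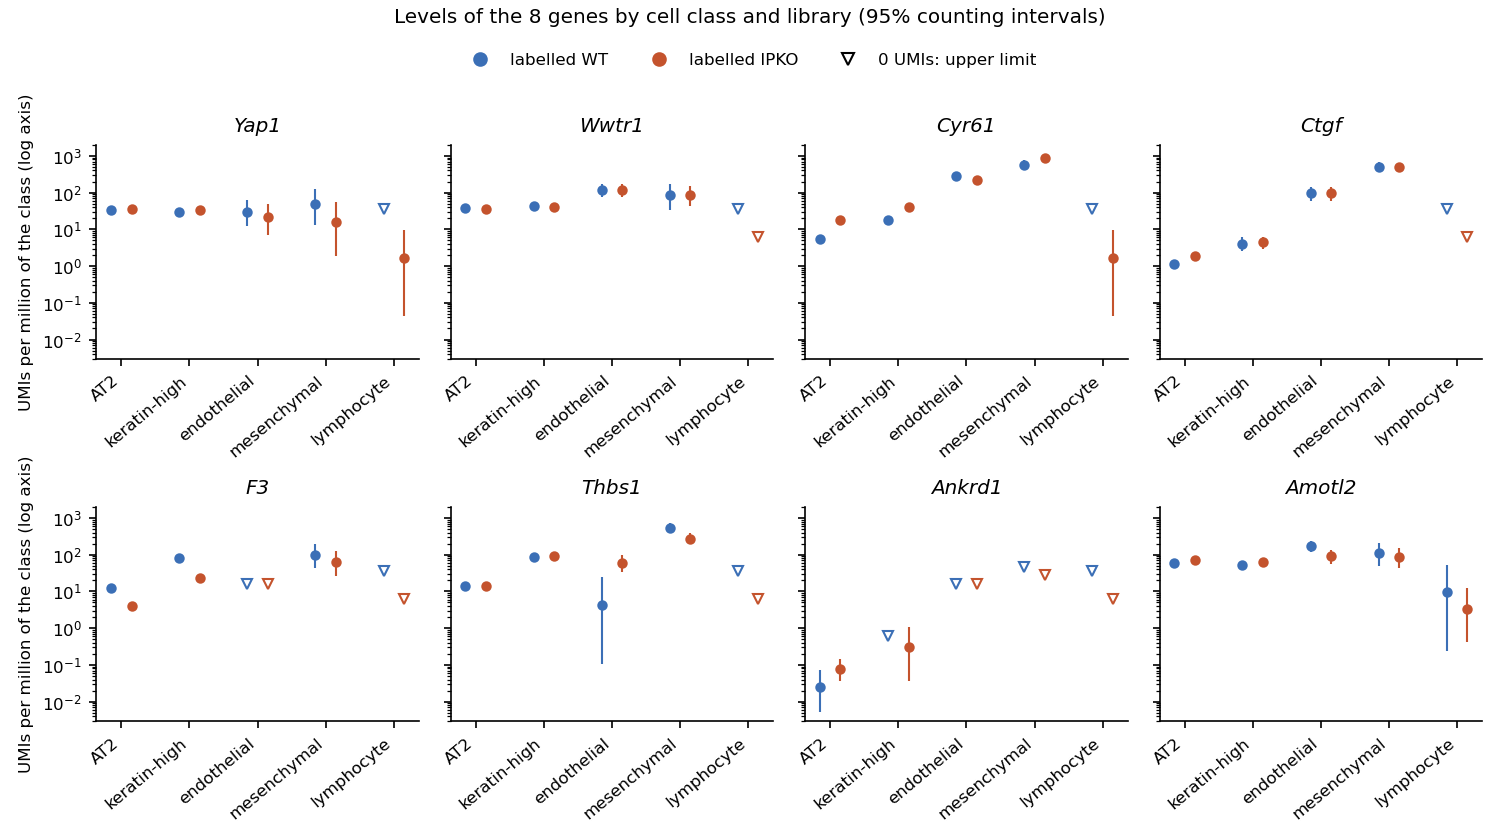
Levels of the 8 genes in CPM of the class (vertical log axis) in AT2, keratin-high, endothelial, mesenchymal and lymphocyte classes, labelled WT in blue and labelled IPKO in orange, with 95% counting intervals, and open triangles at the upper interval bound where 0 UMIs were counted. Cyr61 and F3 part in opposite directions between libraries in AT2 and keratin-high cells, and Cyr61 and Ctgf are highest in endothelial and mesenchymal cells.

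By class, the levels of each gene were ordered as follows. For Cyr61 the order was AT2, keratin-high, endothelial and mesenchymal cells from lowest to highest in both libraries, with no overlap of intervals between neighbours. Ctgf had the same order, also without overlap between AT2, keratin-high and endothelial cells, although single cells hold much of its endothelial and mesenchymal UMIs. Thbs1 labelled WT was lower in AT2 than in keratin-high cells, its mesenchymal level rests on 1 cell, and its endothelial level overlapped that of AT2 cells, while labelled IPKO its endothelial level overlapped that of keratin-high cells. F3 was lower in AT2 than in keratin-high cells, whose interval overlapped that of mesenchymal cells in both libraries (97.7, 42.2 to 192, labelled WT and 62.7, 27.1 to 124, labelled IPKO). Yap1 overlapped between AT2, keratin-high and endothelial cells in both libraries, and Wwtr1 was higher in endothelial cells than in AT2 and keratin-high cells. Amotl2 was higher in endothelial than in AT2 cells labelled WT, and the intervals overlapped labelled IPKO.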

How the data were processed

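The authors deposited UMI counts, not normalized, for called barcodes; Cell Ranger 4.0.0 and GRCm38 (mm10) are named by the submitters' processing notes. Which annotation release was used is not given in the sources used. The members and gene lists were chosen with earlier results of these data known. For each class, the counts of its cells were added up. Levels have exact Poisson intervals, shares exact Clopper-Pearson intervals and ratios exact conditional binomial intervals (95%), which cover counting error only; a count of 0 allows up to 3 counts. Keratin-high cells needed at least 3000 UMIs. Other classes took at least 3 of 10 markers (for lymphocytes, of 9, since Trbc2 matched no feature) with under 10% Sftpc. Tead2 matched more than 1 feature and was not used. No doublet caller was run, and an alternative leaves out the 8% of cells with most UMIs. Named genes were the 8 members, the 2 highest and 2 lowest of each list in AT2 cells, and up to 3 genes most like a member with r of at least 0.1 in both libraries. The extremes named in keratin-high cells, the keratin bands and 2 alternatives were chosen after seeing the data. Whether the libraries are separate animals or pools is not stated. Positions came from GENCODE vM21, with 27722 of 27998 features matched, and promoters from RefSeq. Scripts used Python 3.11.15, numpy 2.4.6, scipy 1.17.1 and pandas 2.3.3, and ratios and intervals were tested on simulated data.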

Additional observations from a re-analysis of the deposited data

Results flagged for a closer look

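Barcodes removed by the filters (2179 labelled WT and 1942 labelled IPKO) entered no comparison, and 3 of the 8 genes were higher there in the library labelled IPKO beyond counting error. Cyr61 had 12 and 40 UMIs, or 3.92 and 16.2 CPM, a log2 ratio of 2.05 (1.09 to 3.11). Amotl2 had 98 and 144 UMIs, a log2 ratio of 0.86 (0.48 to 1.25). Thbs1 had 47 and 58 UMIs, a log2 ratio of 0.61 (0.03 to 1.20). F3 had 20 and 11 UMIs, with a log2 ratio of -0.55 whose interval (-1.76 to 0.58) includes 0. Yap1 (log2 0.43), Wwtr1 (0.16), Ctgf (1.05) and Ankrd1 (1.31) also lay above 0, with intervals that include 0. The share over all genes is not given for these barcodes, so the count of 3 is not a result about these genes.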

How the results depend on the processing

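Alternatives were computed under 21 settings. Cyr61 (log2 between 1.68 and 1.80) and F3 (-1.77 to -1.67) kept their directions in AT2 cells under the 10 settings that change the cells or the scaling, and the added one without cells that carry endothelial or mesenchymal markers is among these. The number of the 8 genes past 1.5-fold in AT2 cells depends on the filter on low genes. It is 4 with no filter, where Ctgf and Ankrd1 join, and 3 at a mean of at least 1 CPM, where Ctgf joins. It is 0 at a mean of at least 20 CPM, which removes Cyr61 and F3. Of all genes, 4563 of 18072 (25.25%) were past 1.5-fold with no filter and 506 of 10913 (4.637%) at 1 CPM. At 20 CPM 137 of 4417 (3.102%) were past it, and in the main setting 272 of 8500 (3.2%). With keratin-high cells taken as the highest 2% or 10%, 1432 (16.24%) and 352 (4.09%) genes were past 1.5-fold in place of 710 (8.18%). With keratin-high cells limited to those that met the Sftpc rule, 491 (5.74%) genes were past it. Cyr61, F3 and Thbs1 remained past 1.5-fold under these settings. No direction of a called value turned. With each cell weighted equally, 4 of the 8 genes were past 1.5-fold between endothelial and AT2 cells in place of 3. The one that joined was Yap1, at log2 -0.60 and -1.44. Of all 9649 genes 54.96% were past 1.5-fold under this setting, so the count is not a result about these genes. The log2 ratio of Amotl2 labelled IPKO there was -0.07 in UMIs without Sftpc, mitochondrial and haemoglobin genes and 0.43 in endothelial cells with at least 7 of 10 markers. Of 337 further values, 285 were classed as unmoved and 52 as moved, 27 of these by thinning to 10000 UMIs. For ratios and shares, unmoved means within the counting interval. Counts of genes have no such interval, and those classed as unmoved include the change from 710 to 491 genes. No paired analysis was possible because each label has 1 library. Leaving out a library would leave no comparison. Differences between mice, sorts and preparations cannot be told apart from the label.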

Other observations

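The genes named here are some of the extremes of their lists between endothelial and AT2 cells, chosen after their values were seen. Fat4 and Tgfb2 reached 5 CPM only through the endothelial cells. Dchs1 stood above Fat4 among the Hippo genes, with log2 ratios of 9.04 labelled WT and 10.1 labelled IPKO. Ccdc80 stood beside Tgfb2 among the other targets, at 8.16 and 8.66. Fat4, a giant cadherin that signals into the pathway, had 9 and 10 UMIs in the 61 and 56 endothelial cells and 14 and 11 in all AT2 cells, log2 ratios of 8.40 (7.01 to 9.71) labelled WT and 9.0 (7.61 to 10.4) labelled IPKO. Tgfb2, which encodes a transforming growth factor, had 5 and 10 UMIs in endothelial cells, log2 ratios of 8.77 (6.72 to 10.8) and 8.29 (7.02 to 9.49). Wwc1, a scaffold of LATS in epithelial cells, stood at 145 and 146 CPM in AT2 cells and had 1 and 0 UMIs in endothelial cells. The epithelial polarity gene Crb3 stood at 86.6 and 94.5 CPM in AT2 cells and had 0 and 1 UMIs in endothelial cells. Of 33 Hippo genes measured, 18 were past 1.5-fold higher and 7 lower in both libraries, and of 12 other targets 7 and 2, against 47.7% and 9.9% of all genes, so that the counts of higher genes lie near the background. The lower genes are a larger part of both lists than of all genes, which was not tested.

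In the few myeloid cells of the sort (17 labelled WT and 44 labelled IPKO), Thbs1 had 24 UMIs labelled WT, from 5 cells, and 1 labelled IPKO. Wwtr1 had 11 and 6 UMIs there. Cells with 3 or more UMIs of Cyr61 among AT2 cells carried mesenchymal markers at 245 CPM labelled WT (57 cells) and 21.3 labelled IPKO (292 cells), against 1.37 and 2.77 in cells with 0 UMIs of Cyr61. Only 1 of these cells in each library, or 1.75% and 0.342%, carried 2 or more mesenchymal markers. Their median share of early-response UMIs was 0.515% and 0.79%, against 0.291% and 0.575%. The part of either in the level of Cyr61 was not tested beyond leaving out cells with such markers.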
